A study of Mus musculus with 26 samples.

Results

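A set of 10 genes of tissue-resident macrophages, Folr2, Lyve1, Timd4, Cbr2, Cd163, Mrc1, Stab1, F13a1, Gas6 and Mertk, was followed through monocytes, small peritoneal macrophages (SPMs) and MHCII negative lung macrophages of WT and ACKR2-/- mice. The set was selected on measured values, the counts of Folr2, Lyve1 and Cbr2, which were lower in ACKR2-/- SPMs than in WT SPMs. The other members were added as genes assigned to the same resident macrophage programme, although F13a1 was highest in monocytes, as given below. All 10 were among the 50104 gene identifiers that the count tables of the 3 cell types share. Because the choice of members used the SPM comparison, the SPM values are given below as a description, without a test. Tests were run in monocytes and lung macrophages, which that choice did not use.

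Many tissues hold self-maintaining macrophages that are set apart from recent monocyte-derived cells by Folr2, Lyve1 and Timd4. These cells take up dying cells, matrix fragments and plasma proteins, and much of their shared programme consists of uptake receptors. In the peritoneal cavity, the tissue-resident population is the large peritoneal macrophage (LPM), which is Timd4 positive, while SPMs carry high MHCII and are replenished from blood monocytes.

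All mice were naïve females. The WT animals were C57BL/6J mice bought from Charles River, and the ACKR2-/- animals, which lack the atypical chemokine receptor ACKR2 throughout the body, came from an in-house colony, so genotype and source of the mice cannot be told apart. Their age is not given in the labels. Bone marrow monocytes and SPMs from peritoneal lavage comprised 4 WT and 4 ACKR2-/- samples each, and each of these samples held cells of 5 mice. MHCII negative lung macrophages comprised 5 WT and 5 ACKR2-/- samples, and how many mice made up each of these was not stated in the sources at hand. Sample numbers within a group come from the labels, which do not say that equal numbers tie a WT sample to an ACKR2-/- sample.

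The 26 libraries held between 12781144 and 35400034 counts assigned to genes. Levels are given as CPM, counts scaled to the total of each library within a cell type, and comparisons between genes or cell types as reads per kilobase of gene, scaled in the same way (RPKM). The targeted gene, Ackr2, was listed at 0 in all 8 ACKR2-/- monocyte and SPM samples, and between 0.24 and 0.616 CPM in WT SPMs. In WT monocytes it was at 0 in all but sample 3 (0.111 CPM). In lung macrophages it was 22.1, 17.7, 7.75, 14.6 and 0 CPM in WT samples 1 to 5, against 1.64, 1.37, 1.07, 0.282 and 0.372 CPM in ACKR2-/- samples. The lung library labelled WT sample 5 thus lacked the Ackr2 reads found in the other WT lung libraries. It was also the WT lung library lowest in lymphatic, blood endothelial and epithelial markers, as given below. Whether its label is right was not tested. WT lung sample 3 also stood apart, with 21242 CPM of the MHCII gene H2-Ab1 against 253 to 1708 CPM in the other 9 lung libraries. The genotype differences in lung macrophages are therefore also given without these libraries. SPM samples carried 24425 to 37813 CPM of H2-Ab1, and monocyte samples 3271 to 6461 CPM of the monocyte gene Ly6c2.

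Folr2 encodes folate receptor beta, a lipid-anchored folate-binding protein of the macrophage surface. In GRCm38/mm10 it spans chr7:101839988-101857194 on the minus strand. Cbr2 (chr11:120729489-120732114, minus strand) encodes a carbonyl reductase, and Timd4 (chr11:46810800-46844332, plus strand) encodes TIM-4, a receptor for phosphatidylserine on dying cells. The bases just before the start of these 3 genes are shown because they set Folr2 and Cbr2, which were lower in ACKR2-/- SPMs, beside Timd4, which was not. Each sequence is from RefSeq (GRCm38.p6) and runs 5′ to 3′ on the strand of the gene, with capitals marking the motifs GGAAGT, which holds the core of ETS factor sites, and TGCTGA, a half-site of MAF factors, on either strand (ACTTCC and TCAGCA when reversed).
Folr2, chr7:101857195-101857440: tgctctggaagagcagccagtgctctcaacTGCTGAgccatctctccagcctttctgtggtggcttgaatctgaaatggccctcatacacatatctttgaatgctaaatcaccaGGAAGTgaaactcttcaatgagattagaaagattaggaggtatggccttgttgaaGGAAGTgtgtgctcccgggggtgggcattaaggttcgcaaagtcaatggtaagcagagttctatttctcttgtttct
Cbr2, chr11:120732115-120732271: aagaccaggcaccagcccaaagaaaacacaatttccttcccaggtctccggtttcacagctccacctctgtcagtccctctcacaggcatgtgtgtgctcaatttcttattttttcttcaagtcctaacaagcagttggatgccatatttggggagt
Timd4, chr11:46810549-46810798: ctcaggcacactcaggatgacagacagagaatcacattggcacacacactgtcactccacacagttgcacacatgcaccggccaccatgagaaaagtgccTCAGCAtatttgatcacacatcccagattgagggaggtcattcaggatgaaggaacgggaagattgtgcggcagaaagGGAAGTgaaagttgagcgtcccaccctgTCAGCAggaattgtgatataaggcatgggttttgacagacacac

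Counted in 250 bases before each RefSeq start, the first Folr2 window held GGAAGT at 136 and 81 bases and TGCTGA at 220 bases before the start. The Timd4 window held GGAAGT at 72 bases and the reversed TGCTGA at 150 and 44 bases before the start. Neither motif was found in the Cbr2 window. RefSeq gave 11 such windows for 9 of the 10 members (none for Lyve1). GGAAGT was in 4 of the 11, against 19.7% of all 32851 windows, and TGCTGA was also in 4 of the 11, against 16.1%. A match describes these letters and is no evidence that a factor binds, and no match says only that the letters are not in the window.

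The other members lie on several chromosomes. The scavenging and binding receptors are Lyve1 (chr7:110850607-110863239), a hyaluronan receptor that is also a marker of lymphatic endothelium, Cd163 (chr6:124304656-124330527), which takes up haemoglobin bound to haptoglobin, Mrc1 (chr2:14229392-14332057), the mannose receptor CD206, and Stab1 (chr14:31139013-31168641), the scavenger receptor stabilin-1. Mertk (chr2:128698956-128802894) encodes a receptor tyrosine kinase for the uptake of dying cells, and Gas6 (chr8:13465374-13494490) encodes a ligand that bridges it to phosphatidylserine. F13a1 (chr13:36867178-37050244) encodes the A subunit of coagulation factor XIII, a transglutaminase that macrophages and monocytes also make.

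In SPMs, Folr2 was 25.0, 35.2, 35.3 and 34.1 CPM in WT samples 1 to 4, and 10.7, 10.96, 15.1 and 15.5 CPM in ACKR2-/- samples 1 to 4. Every WT sample was above every ACKR2-/- sample, and the fitted log2 fold change (ACKR2-/- against WT, as throughout) was -1.31. Lyve1 was 24.9, 14.7, 13.7 and 14.0 CPM in WT and 5.56, 6.34, 7.91 and 5.09 CPM in ACKR2-/- samples. The genotypes again did not overlap, WT sample 1 was the highest, and the log2 fold change was -1.44. Cbr2 was 69.1, 94.0, 113 and 94.6 CPM in WT and 42.3, 40.2, 41.7 and 50.9 CPM in ACKR2-/- samples. Its genotypes did not overlap either, with a log2 fold change of -1.08. As ratios of the means, WT SPMs held 2.48 times as much Folr2, 2.71 times as much Lyve1 and 2.12 times as much Cbr2. In bulk samples, fewer cells of a type and less RNA per cell cannot be told apart.

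**Figure D1:**
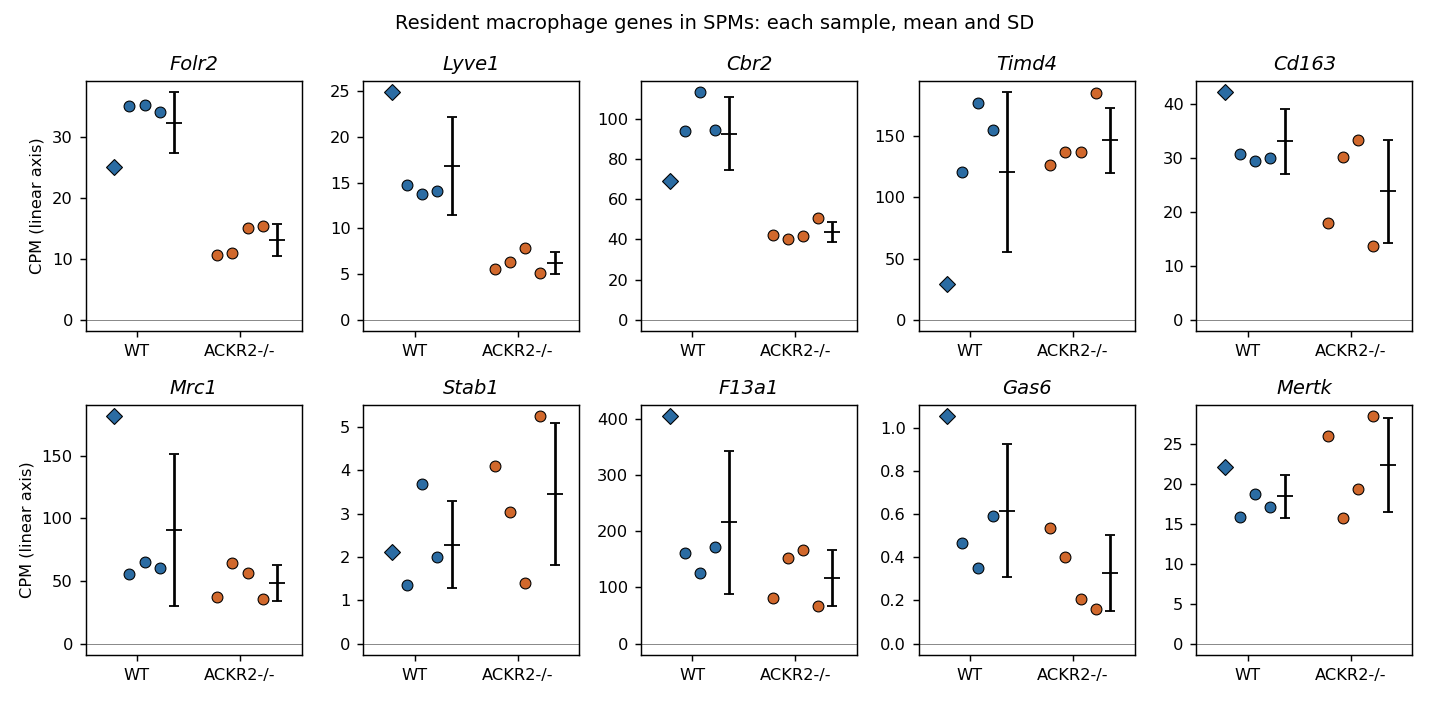
The 10 genes in SPMs, as CPM on linear axes that differ between genes, with 1 point per sample (a diamond for WT sample 1) and the mean and SD of each genotype beside them (n = 4). Folr2, Lyve1 and Cbr2 are the 3 genes whose genotypes do not overlap, and WT sample 1 is the highest point for Mrc1 (182 CPM) and F13a1 (405 CPM) and the lowest for Timd4 (29.2 CPM).

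These 3 genes chose the set, and the remaining 7 overlapped between genotypes in SPMs. The share of all tested genes whose ACKR2-/- SPM samples lay wholly below the WT samples was 1.6%, and nothing is read from the 3 members beside it. Timd4 was 29.2, 121, 177 and 155 CPM in WT and 126, 137, 137 and 185 CPM in ACKR2-/- SPMs. Apart from the low WT sample 1 the genotypes covered the same range, and the log2 fold change of 0.28 was -0.04 without that sample. The nearest members outside the non-overlapping group were F13a1, Gas6 and Mrc1, with log2 fold changes of -0.89, -0.97 and -0.91.

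Mrc1 was 182, 55.9, 65.1 and 60.5 CPM in WT and 37.1, 64.5, 56.1 and 35.3 CPM in ACKR2-/- SPMs. F13a1 was 405, 161, 125 and 172 CPM in WT and 81.1, 152, 166 and 67.4 CPM in ACKR2-/- SPMs. WT sample 1 was far above the other libraries for both, and without it their log2 fold changes were -0.32 and -0.39. Cd163 was 42.1, 30.6, 29.4 and 30.0 CPM in WT and 17.9, 30.2, 33.3 and 13.6 CPM in ACKR2-/- SPMs. ACKR2-/- samples 1 and 4 were the low ones for Cd163, Mrc1 and F13a1 alike. Gas6 stayed between 0.162 and 1.05 CPM and Stab1 between 1.34 and 5.25 CPM, both with overlapping genotypes. Mertk was 22.04, 15.8, 18.7 and 17.1 CPM in WT and 25.98, 15.7, 19.3 and 28.4 CPM in ACKR2-/- SPMs, so its genotypes overlapped. Without WT sample 1, Folr2, Lyve1 and Cbr2 had log2 fold changes of -1.41, -1.18 and -1.20.

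Markers of other cell types were set beside these values. The lymphatic endothelial genes Ccl21a, Mmrn1 and Reln, markers of the other cell type known for Lyve1, were at 0 in all 8 SPM samples, and the summed level of the 6 lymphatic markers other than Ackr2 was at most 0.176 CPM. The summed level of 8 LPM markers was 389, 879, 1022 and 1196 CPM in WT and 1866, 1323, 1034 and 2158 CPM in ACKR2-/- SPMs. WT sample 1 was the lowest, and ACKR2-/- samples 1 and 4 were the highest. The LPM marker sum was therefore higher in most ACKR2-/- SPM samples, while Folr2, Lyve1 and Cbr2 were lower in all of them. In lung macrophages the same sum was 1422 to 1828 CPM in WT and 1422 to 1912 CPM in ACKR2-/- samples. These lung values lay above every WT SPM sample, so the sum is not specific to LPMs and does not measure their content. The part of LPMs in the differences of Folr2, Lyve1 and Cbr2 was not tested.

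Monocyte markers were also set beside the SPM values. Their summed level over 6 genes was 2196, 1112, 998 and 1162 CPM in WT and 2105, 756, 863 and 2549 CPM in ACKR2-/- samples, with overlapping ranges. Of the 6, edgeR called none, and the median log2 fold change was 1.013. At an unadjusted p under 0.05, 4 were higher (2.93% of all genes) and 1 was lower (2.52%) in ACKR2-/- SPMs. Ly6c2, a surface antigen of inflammatory monocytes, had a median of 206 CPM in ACKR2-/- and 47.8 CPM in WT SPMs (log2 fold change 2.76, SE 0.94, edgeR adjusted p 0.788), and the lower gene was the chemokine receptor gene Ccr2, with medians of 405 and 731 CPM (log2 fold change -1.19, SE 0.36, edgeR adjusted p 0.788). ACKR2-/- samples 1 and 4 had the highest sums of their genotype and were its lowest for Cd163, Mrc1 and F13a1. WT sample 1 had the highest WT sum (2196 CPM) but was the highest SPM sample for Cd163 (42.1 CPM), Mrc1 (182 CPM) and F13a1 (405 CPM). Folr2, Lyve1 and Cbr2 were below all WT samples in every ACKR2-/- sample. The part of monocytes in the SPM differences was not tested.

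Other genes of the programme were read from 4 lists. Of 23 companion genes, which are often found with Folr2, Lyve1 and Timd4 in resident macrophages, 22 were tested in SPMs, and the edgeR quasi-likelihood test called none of them at an adjusted p under 0.05 and a log2 fold change beyond 0.5 (0.0462% of all genes were called). At an unadjusted p under 0.05, 3 were lower (2.52% of all genes) and 1 was higher (2.93%), while DESeq2 called 1 (0.153%). The 2 with the smallest p among those lower in ACKR2-/- SPMs were the C-type lectin genes Cd209g (log2 fold change -2.10, SE 0.48) and Cd209f (-1.83, SE 0.49), with adjusted p of 0.718 and 0.788 by edgeR. Among those higher, Cd5l, which encodes the secreted macrophage protein AIM, had a log2 fold change of 1.26 (SE 0.48), and the chemokine gene Ccl8 had 2.38 (SE 1.32), both with an adjusted p of 0.788 by edgeR.

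None of 13 tested genes for the uptake of dying cells, 12 scavenger receptor genes and 12 folate genes was called in SPMs by edgeR or DESeq2. At an unadjusted p under 0.05, 2 uptake genes and 3 scavenger receptor genes were higher in ACKR2-/- SPMs, none of these was lower, and no folate gene passed in either direction. The scavenger receptor gene with the largest difference was Marco (log2 fold change 2.73, SE 0.85, edgeR adjusted p 0.788), chosen here after its values were seen.

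In monocytes, 5 of the 10 members had too few reads to be tested. Folr2 had 2, 4, 0 and 2 reads in WT and 0, 0, 1 and 0 reads in ACKR2-/- samples, and Lyve1 had at most 4 reads in any monocyte library. Timd4 reached at most 5 reads, Gas6 at most 7 and Mertk at most 11. These genes were close to absent from bone marrow monocytes of both genotypes at this depth of 15450670 to 19218213 counts.

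F13a1 was the exception, with 1153, 823, 1214 and 929 CPM in WT and 675, 605, 1107 and 1043 CPM in ACKR2-/- monocytes. The genotypes overlapped, and the log2 fold change of -0.26 (SE 0.22) had an adjusted p of 0.563 by edgeR. Cbr2 was 13.2, 8.64, 13.2 and 9.90 CPM in WT and 7.05, 8.82, 17.9 and 10.8 CPM in ACKR2-/- monocytes. The ACKR2-/- samples spanned the whole WT range, and the log2 fold change was -0.01 (95% interval -0.60 to 0.58). It is not set against the SPM value, which chose the set, and the difference between those cell types was not tested. Mrc1 lay between 0.538 and 3.12 CPM, with a log2 fold change of -0.57 (SE 0.43, edgeR adjusted p 0.516). Cd163 and Stab1 lay between 0.895 and 3.84 CPM, with log2 fold changes of 0.25 (SE 0.29) and -0.31 (SE 0.36).

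Of the 5 tested members none was called in monocytes by edgeR (1.27% of all genes were called), none had an unadjusted p under 0.05 (17.0% of all genes), and DESeq2 called none of the 10 (3.31% of all genes). All 10 overlapped between genotypes, where 5.25% of all genes had all ACKR2-/- monocyte samples below the WT samples and 4.94% had them above. Exact two-sided permutation tests of the mean CPM gave p between 0.0571 (Mertk) and 1.00, where 4 against 4 samples cannot go below 0.0286. These are unadjusted values among 20 such tests, 10 in each of monocytes and lung macrophages.

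Of the 23 companions, 15 were tested in monocytes and 1 was called, the lectin gene Cd209d, which was higher in ACKR2-/- monocytes (log2 fold change 1.43, SE 0.30, edgeR adjusted p 0.0452). DESeq2 called Cd209d and also C1qb, which encodes a chain of complement C1q and had a log2 fold change of -1.11 (SE 0.27) with an edgeR adjusted p of 0.0785. None of the 13 uptake, 11 scavenger receptor and 11 folate genes tested was called by either tool or had an unadjusted p under 0.05. All 4 T cell markers were called higher in ACKR2-/- monocytes, with sums of 34.4 to 59.0 CPM against 1.95 to 2.02 CPM in WT, and their part in the companion results was not tested.

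In lung macrophages, all 10 members were tested and all overlapped between genotypes, where 0.226% of all genes had all ACKR2-/- samples below the WT samples and 0.22% had them above. Folr2 was 41.5, 19.8, 118, 18.6 and 37.1 CPM in WT samples 1 to 5, and 12.1, 22.8, 22.4, 14.0 and 4.73 CPM in ACKR2-/- samples. WT sample 3 was the highest and ACKR2-/- sample 5 the lowest, and 2 WT samples lay below ACKR2-/- samples 2 and 3. The log2 fold change was -1.63 (SE 0.55, 95% interval -2.84 to -0.41), with an unadjusted p of 0.0130 but an adjusted p of 1.00 over all genes by edgeR. The exact two-sided permutation test of the mean CPM gave an unadjusted p of 0.0476, where the smallest possible value is 0.00794. Without WT sample 3, the log2 fold change was -0.93 (SE 0.43, edgeR unadjusted p 0.0541).

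Lyve1 and Cbr2, which were low together with Folr2 in ACKR2-/- SPMs, are given next for the lung. Lyve1 was 98.3, 95.1, 47.0, 61.2 and 12.4 CPM in WT and 137, 90.7, 58.3, 9.94 and 14.4 CPM in ACKR2-/- lung macrophages. Both genotypes held high and low samples, and the log2 fold change was -0.02 (95% interval -1.54 to 1.51). Cbr2 was 734, 366, 531, 298 and 75.0 CPM in WT and 658, 435, 309, 30.1 and 269 CPM in ACKR2-/- lung macrophages. Here, too, the ranges overlapped almost wholly, with a log2 fold change of -0.24 (95% interval -1.71 to 1.24). Without WT samples 3 and 5 the values were -0.42 for Lyve1 and -0.43 for Cbr2. Leaving these out also shifted the markers of other cell types between genotypes, as given below. The intervals of Lyve1 and Cbr2 are wide, so the lung samples show neither a difference between the genotypes nor its absence.

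**Figure D2:**
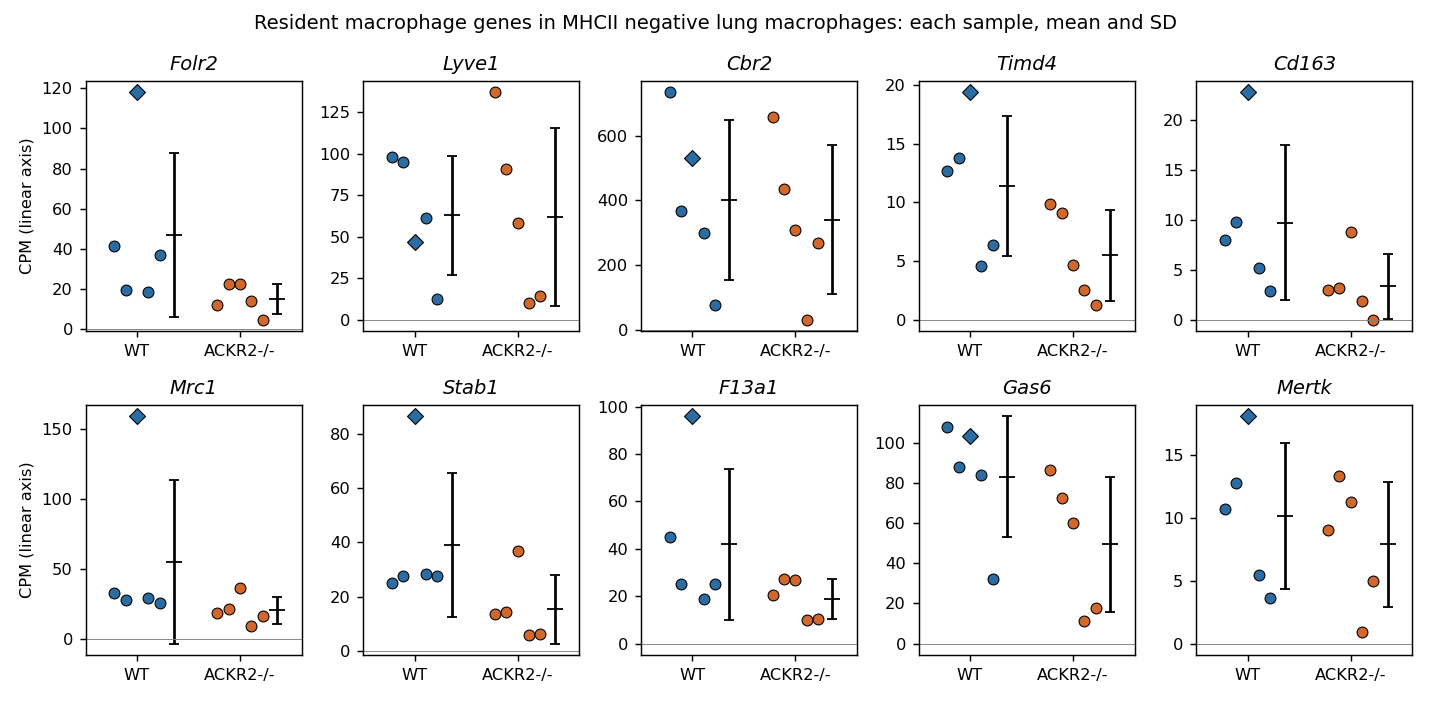
The 10 genes in MHCII negative lung macrophages, as CPM on linear axes that differ between genes, with 1 point per sample (a diamond for WT sample 3) and the mean and SD of each genotype beside them (n = 5). WT sample 3 is the highest point for Folr2 (118 CPM), Mrc1 (159 CPM) and Stab1 (86.7 CPM) but not for Lyve1 (47.0 CPM), and the genotypes overlap for every gene.

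Among the other receptors, Mrc1 was 32.5, 27.8, 159, 29.4 and 25.7 CPM in WT and 18.5, 21.1, 35.9, 9.21 and 16.5 CPM in ACKR2-/- lung macrophages. Stab1 was 24.9, 27.6, 86.7, 28.4 and 27.5 CPM in WT and 13.5, 14.5, 36.7, 5.83 and 6.01 CPM in ACKR2-/- samples. For both genes a single ACKR2-/- library, sample 3, reached above the lower WT samples. The log2 fold changes were -1.44 (SE 0.56) for Mrc1 and -1.35 (SE 0.54) for Stab1, with unadjusted p of 0.0258 and 0.0297 and adjusted p of 1.00 by edgeR. Exact permutation tests gave unadjusted p of 0.0635 for Mrc1 and 0.0397 for Stab1. Without WT sample 3, the log2 fold changes were -0.50 for Mrc1 and -0.81 for Stab1, with unadjusted p of 0.141 and 0.114 by edgeR.

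Cd163 was 7.98, 9.77, 22.7, 5.17 and 2.92 CPM in WT and 2.99, 3.15, 8.77, 1.85 and 0 CPM in ACKR2-/- lung macrophages. The highest and lowest libraries were again WT sample 3 and ACKR2-/- sample 5, and the log2 fold change was -1.53 (SE 0.89, edgeR unadjusted p 0.113), which was -0.92 without WT sample 3 (p 0.324). F13a1 was 44.8, 24.9, 96.0, 18.7 and 25.1 CPM in WT and 20.5, 27.2, 26.7, 10.1 and 10.3 CPM in ACKR2-/- samples, with a log2 fold change of -1.14 (SE 0.47, edgeR unadjusted p 0.0336, adjusted p 1.00). Leaving out WT sample 3, the F13a1 value was -0.57 (edgeR unadjusted p 0.149).

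Of the genes for the uptake of dying cells among the members, Timd4 was 12.7, 13.8, 19.4, 4.58 and 6.40 CPM in WT and 9.88, 9.11, 4.68, 2.53 and 1.28 CPM in ACKR2-/- lung macrophages. WT samples 1 to 3 lay above all ACKR2-/- samples and WT samples 4 and 5 did not, and the log2 fold change was -1.04 (SE 0.56, edgeR unadjusted p 0.0895). The ligand Gas6 was 108, 87.7, 103, 84.1 and 32.3 CPM in WT and 86.2, 72.2, 59.9, 11.02 and 17.4 CPM in ACKR2-/- samples (log2 fold change -0.75, SE 0.53, edgeR unadjusted p 0.180). Its receptor gene Mertk was 10.7, 12.8, 18.1, 5.49 and 3.63 CPM in WT and 8.997, 13.3, 11.3, 0.885 and 4.998 CPM in ACKR2-/- samples (log2 fold change -0.36, SE 0.61, edgeR unadjusted p 0.569). Both genes were lowest within their genotype in WT sample 5 and ACKR2-/- sample 4. With WT sample 3 left out, the values were -0.74 for Timd4, -0.64 for Gas6 and -0.02 for Mertk. Without both WT samples 3 and 5, which also shifted the markers of other cell types (below), they were -0.88, -0.89 and -0.26.

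Over the set, edgeR called 0 of 10 members in lung macrophages, where it called 0% of all 16824 genes, and DESeq2 called no member and 21 of all genes (0.112%). All 10 fitted log2 fold changes were below 0, as were those of 9283 of the 16824 genes tested, and the median was -1.09 against -0.04 over all genes. At an unadjusted p under 0.05, 4 of the 10 were lower in ACKR2-/- lung macrophages, against 1.72% of all genes. Without WT sample 3, this count was 0 of 10 against 0.82% of all genes, and the median was -0.60. Without both WT samples 3 and 5 it was 0 of 10 against 1.05%, and the Folr2 value was -0.78 (edgeR unadjusted p 0.127). Of the 8 general macrophage markers, all had log2 fold changes below 0 in lung macrophages, with a median of -0.64, and 4 were lower at an unadjusted p under 0.05 while edgeR called none. After WT sample 3 was left out, 2 of these 8 were lower at that level, with a median of -0.28. The part of macrophage content in the genotype differences of the members was not tested.

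**Figure D3:**
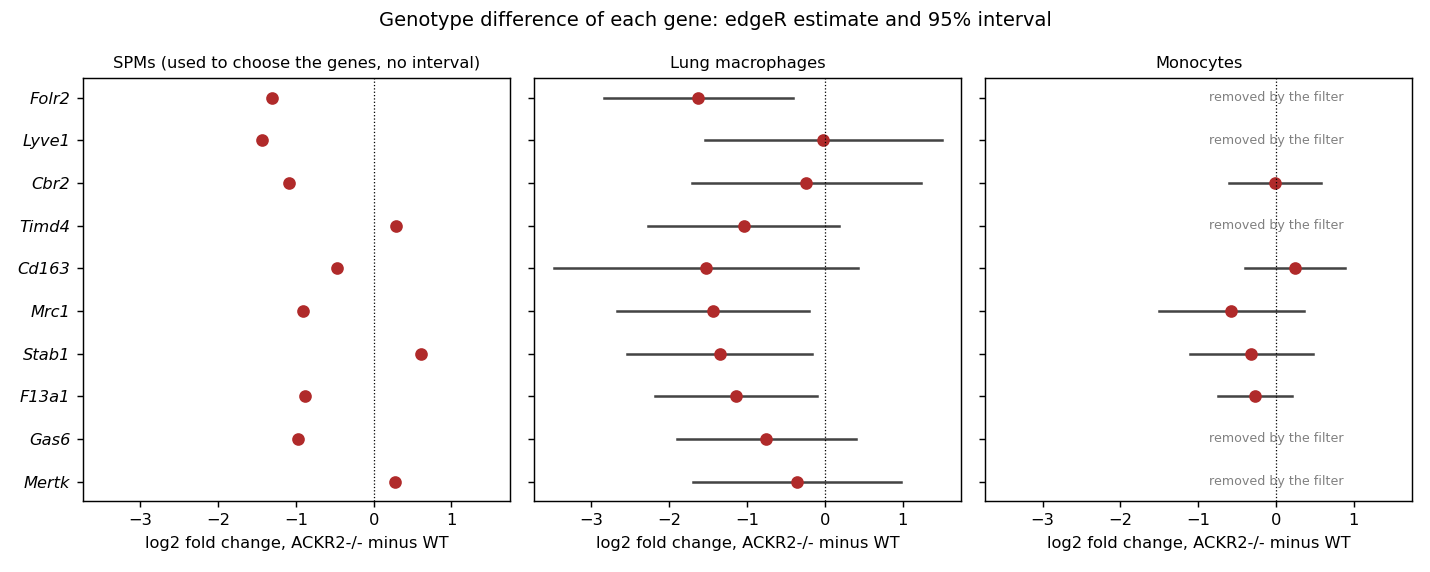
Fitted log2 fold changes (ACKR2-/- against WT) of the members in the 3 cell types, with 95% intervals in monocytes and lung macrophages and no interval in SPMs, whose values chose the genes. In lung macrophages all 10 points lie below 0, from -1.63 for Folr2 to -0.02 for Lyve1, and in monocytes the 5 tested genes have intervals that include 0.

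WT lung sample 3 differed from the other lung libraries in several cell type markers. The summed level of 8 macrophage markers was 14870 CPM in it and 2522 to 5557 CPM in the other 9 lung libraries. The summed level of 8 markers of MHCII positive macrophages was 97284.5 CPM against 3996 to 9529 CPM, and that of 4 B cell markers was 1942 CPM against 125 to 668 CPM. Its raised Folr2, Mrc1, Stab1 and F13a1 thus came together with raised macrophage and MHCII markers, and the part of these cells in the genotype differences was not tested. As stated above, the differences of Folr2, Mrc1, Stab1 and F13a1 were smaller without this library.

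Lyve1, Cbr2, Gas6, Mertk and also Mrc1 (25.7 and 9.21 CPM) were lowest within their genotype in other libraries, WT sample 5 and ACKR2-/- sample 4. The summed level of 5 epithelial markers was 372 and 232 CPM in these, against 5703 to 16756 CPM in the other 8 lung libraries. The summed blood endothelial markers were 115 and 117 CPM, against 290 to 894 CPM, and the summed fibroblast or mesothelial markers 81.6 and 55.6 CPM, against 198 to 918 CPM. Lymphatic endothelial markers were likewise lowest there, at 27.1 and 15.8 CPM against 53.6 to 125 CPM, and the lymphatic chemokine gene Ccl21a was detected in every lung library. ACKR2-/- sample 5 was also low for Lyve1 (14.4 CPM) and Gas6 (17.4 CPM), with an epithelial sum of 5703 CPM. Leaving out WT samples 3 and 5 removed 1 marker-poor library, while ACKR2-/- sample 4 stayed. Median log2 fold changes then went from -0.10 to -0.61 for blood endothelial and from -0.33 to -0.82 for fibroblast or mesothelial markers. For epithelial markers the median went from -0.04 to -0.30. The part of these other cell types in the lung levels and differences of Lyve1, Cbr2, Gas6, Mertk and Mrc1 was not tested.

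**Figure D4:**
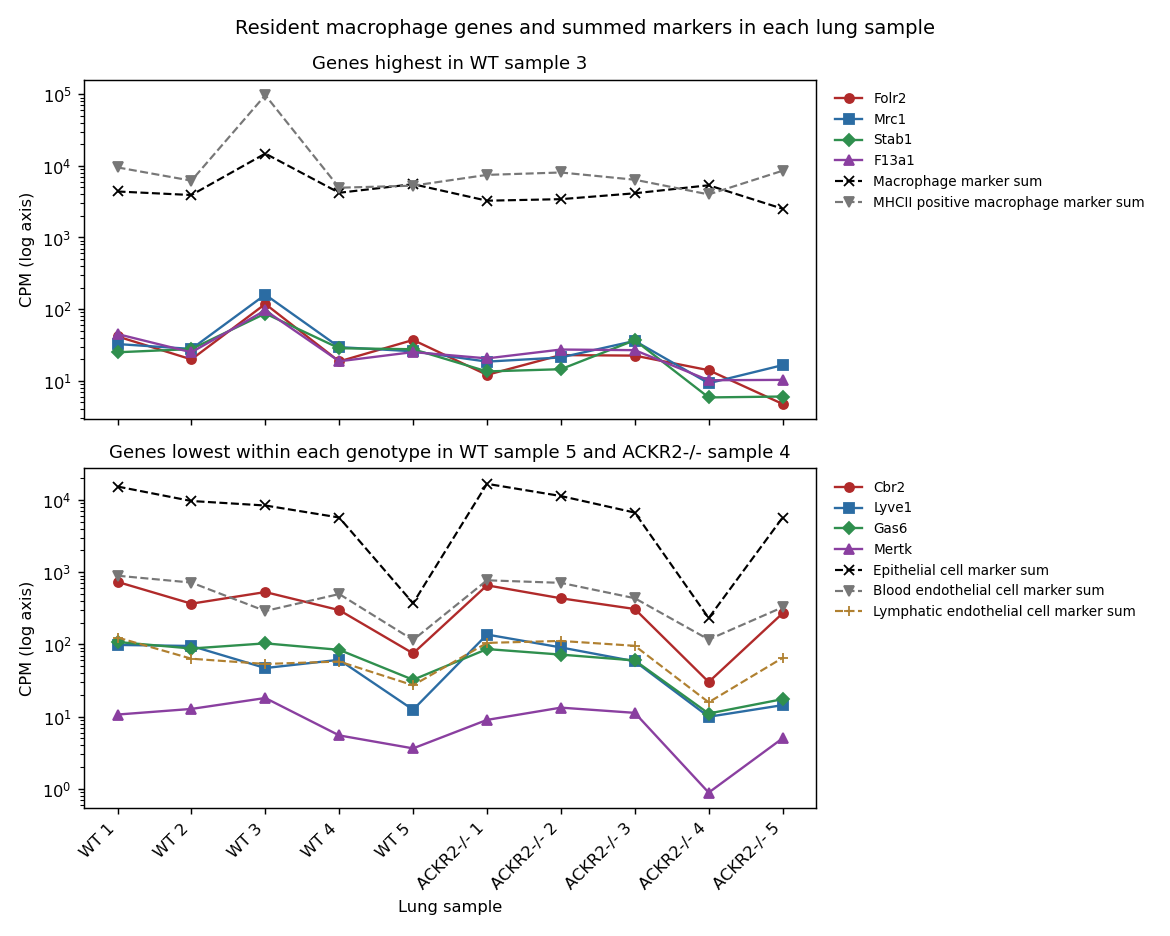
CPM (log axis) of 8 members and of summed markers (dashed) in each of the 10 lung libraries, where lines only join the values of 1 gene or list. WT sample 3 peaks for Folr2, Mrc1, Stab1 and F13a1 together with the macrophage markers (14870 CPM, upper panel), and WT sample 5 and ACKR2-/- sample 4 are lowest within their genotype for Cbr2, Lyve1, Gas6 and Mertk together with the epithelial markers (372 and 232 CPM, lower panel). Mrc1, in the upper panel, is also lowest within its genotype in WT sample 5 and ACKR2-/- sample 4.

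Of the companion genes, all 23 were tested in lung macrophages and none was called by edgeR or DESeq2. At an unadjusted p under 0.05, 10 of the 23 (43.5%) were lower in ACKR2-/- lung macrophages, against 1.72% of all genes, and none was higher. Their median log2 fold change was -1.20. Of the 8 general macrophage markers, 4 were lower at that level, as given above. When WT sample 3 was left out, 3 of 23 companions were lower (0.82% of all genes) with a median of -0.48. Without both WT samples 3 and 5 none was (1.05% of all genes). The smallest p were those of the C1q genes, with log2 fold changes of -2.46 for C1qc (SE 0.78) and -2.40 for C1qa (SE 0.79) and an adjusted p of 1.00 by edgeR for each.

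Of 16 uptake genes tested in lung macrophages, none was called by edgeR or DESeq2. At an unadjusted p under 0.05, 2 were lower and 1 was higher, where 290 and 209 of all 16824 genes were. The lower ones were Trem2, a lipid-sensing receptor gene (log2 fold change -1.25, SE 0.54), and the integrin gene Itgb5 (-0.50, SE 0.22), and the higher one was the integrin gene Itgb3 (0.82, SE 0.36), each with an edgeR adjusted p of 1.00. Of 14 scavenger receptor genes none was called by either tool, and the lectin genes Cd209b (log2 fold change -2.08, SE 0.88) and Cd209a (-3.15, SE 1.36) were lower at an unadjusted p under 0.05. Without WT sample 3, no uptake or scavenger receptor gene was lower at that level, where 142 of all 17316 genes were, and 1 uptake gene was higher. Without both WT samples 3 and 5, none of these genes passed in either direction. None of 12 folate genes was called by either tool or had an unadjusted p under 0.05.

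Levels were next compared between cell types in a single fit of all 26 samples. Cell type, sequencing run and counting table cannot be told apart in these comparisons. The lung libraries also held the epithelial, endothelial and other markers given above, and the part of those cells in the lung levels was not tested. Folr2, Lyve1, Timd4, Gas6 and Mertk, at or near 0 reads in monocytes, entered this fit only through the macrophage groups, so no call, fold or count is given for them. The comparison was read for the 5 members that were also tested within monocytes. Between WT lung macrophages and WT monocytes all 5 were called, where 63.8% of all 17792 genes were called. Of these, 4 were higher in lung macrophages, where 39.5% of all genes were, and F13a1 was lower. F13a1 had a log2 fold change of -4.64 (SE 0.46), while Cbr2, Stab1 and Mrc1 had 5.15 (SE 0.64), 4.57 (SE 0.56) and 4.36 (SE 0.58). Cd163 had the smallest difference of the 5, 2.03 (SE 0.63, edgeR adjusted p 0.00705), which was 1.48 without WT lung sample 3. All 5 were also called when either WT lung sample 3 or WT lung sample 5 was left out.

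In ACKR2-/- samples, 4 of the 5 were called, where 62.0% of all genes were called. F13a1 was lower in lung macrophages (log2 fold change -5.48, SE 0.48), and Cbr2, Stab1 and Mrc1 were higher by 4.95 (SE 0.64), 3.56 (SE 0.54) and 3.52 (SE 0.57). Cd163 was not called (0.29, SE 0.61, edgeR adjusted p 0.695). The genotype effect of these 5 was compared between lung macrophages and monocytes with an interaction term. The edgeR test called none of the 5 at an adjusted p under 0.05 (0.152% of all genes), and none had an unadjusted p under 0.05 (6.07% of all genes). The difference for Cd163 was -1.74 (SE 0.87, edgeR adjusted p 0.836), so its being called in WT alone is not shown to be a difference between the genotypes. Without WT lung sample 3 the interaction values were -1.18 for Cd163, 0.05 for Mrc1 (from -0.84), -0.51 for Stab1 (from -1.01) and -0.32 for F13a1 (from -0.84).

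Per length, the order of the members differed between cell types. In WT monocytes F13a1 led with 119 ± 20.2 RPKM (SD, n = 4) and Cbr2 followed with 6.61 ± 1.299 RPKM (SD, n = 4). In WT SPMs Cbr2 (124 ± 28.4 RPKM), Timd4 (99.4 ± 55.1), F13a1 (54.9 ± 28.4) and Folr2 (37.0 ± 7.35) led, and Gas6 (0.417 ± 0.183) and Stab1 (0.390 ± 0.172) were lowest (SD, n = 4). In ACKR2-/- SPMs Timd4 (124 ± 23.3 RPKM) was above Cbr2 (60.6 ± 6.95), and Folr2 was 15.5 ± 3.19 (SD, n = 4). In WT lung macrophages Cbr2 (235 ± 154 RPKM) led, followed by Gas6 (25.2 ± 9.33), Folr2 (23.4 ± 19.6) and Lyve1 (16.7 ± 9.92), and Cd163 was lowest (1.36 ± 1.05, SD, n = 5). Cbr2 also led in ACKR2-/- lung macrophages (201 ± 144 RPKM), where Lyve1 (16.8 ± 15.1) and Gas6 (15.2 ± 10.7) came before Folr2 (7.68 ± 3.74, SD, n = 5). These lung levels include RNA of any other cells in the libraries. WT sample 5 and ACKR2-/- sample 4 were lowest in epithelial markers (372 and 232 CPM). Cbr2 was 75.0 and 30.1 CPM there, against maxima of 734 CPM in WT and 658 CPM in ACKR2-/- samples. The part of other cells in the lung order was not tested.

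**Figure D5:**
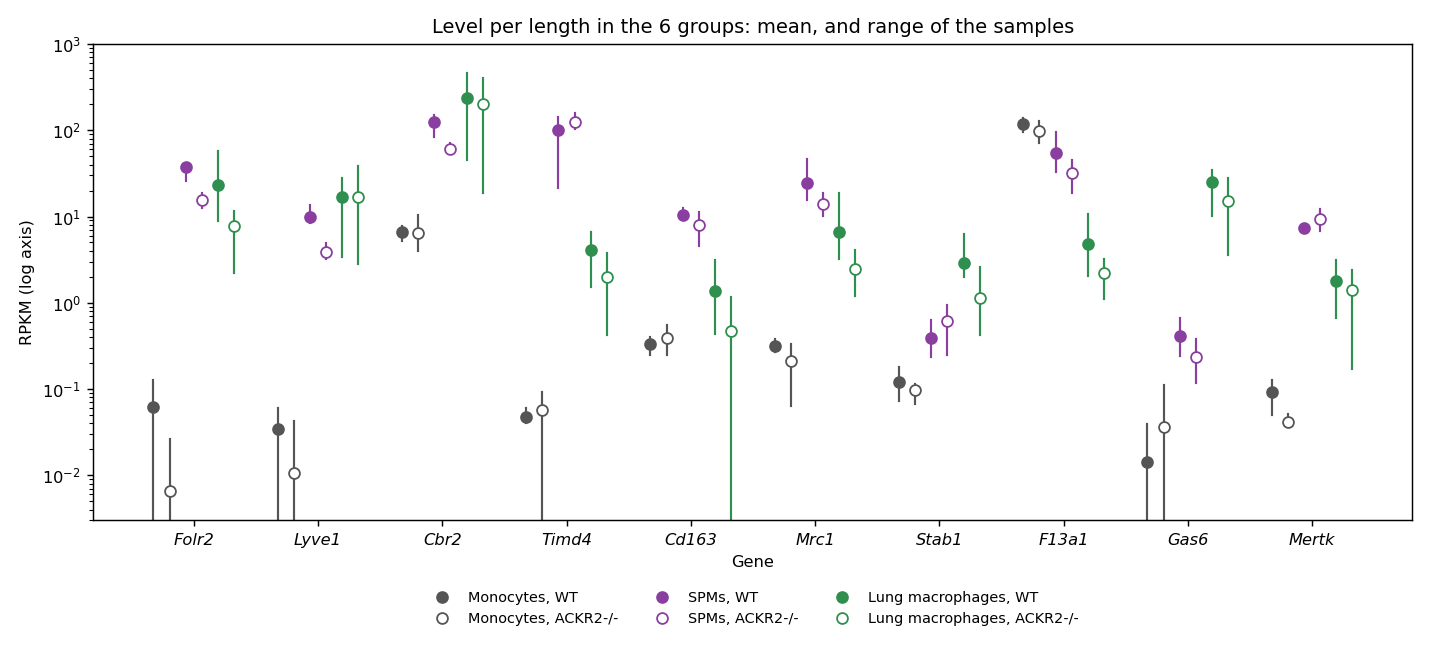
Levels of the members per length, as RPKM on a log axis, in the 6 groups, with a point at the mean and a line over the range of the samples, which runs off the axis where a sample is at 0. F13a1 is highest in monocytes (119 RPKM in WT), Timd4 in SPMs (99.4 RPKM in WT and 124 RPKM in ACKR2-/-), and Gas6 in lung macrophages (25.2 RPKM in WT).

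Across the 6 groups, Timd4, Cd163, Mrc1, Mertk and Folr2 had their highest mean in SPMs in both genotypes. For Timd4, Cd163 and Mertk the SPM groups of both genotypes overlapped each other and lay above every lung sample. For Mrc1 the SPM and lung ranges overlapped only through WT lung sample 3 (18.6 RPKM). Folr2 ran in the order WT SPMs, WT lung macrophages, ACKR2-/- SPMs, ACKR2-/- lung macrophages and monocytes. The ranges of neighbours among the first 3 overlapped, while those of ACKR2-/- SPMs and ACKR2-/- lung macrophages did not. The overlap of WT SPMs and WT lung macrophages rested on WT lung sample 3 alone (56.8 RPKM). Lyve1, Cbr2, Stab1 and Gas6 were highest in the lung libraries, with the limit on other cells given above. Only for Gas6 among these were the lung samples separate from all SPM samples, at a mean of 25.2 RPKM in WT lung macrophages against 0.417 RPKM in WT SPMs. F13a1 was highest in monocytes, and its range overlapped between monocytes and SPMs only through WT SPM sample 1 (96.6 RPKM). For F13a1 all lung samples lay below all SPM samples.

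The members were also compared with Folr2 across the 10 lung samples, on log2 CPM, with a permutation test and adjustment over these 9 relations. F13a1 followed Folr2 most closely (Pearson r 0.91, permutation adjusted p 0.00477, Spearman rho 0.90, permutation adjusted p 0.00801). Stab1 (r 0.85), Mrc1 (r 0.81), Cd163 (r 0.80) and Timd4 (r 0.77) also passed by r, with permutation adjusted p of 0.0135, 0.0240, 0.0201 and 0.0201, but none of these passed by rho, with adjusted p of 0.0937 or more. Without WT sample 3 and ACKR2-/- sample 5, the samples farthest from the median of Folr2, r was 0.75 for F13a1, 0.56 for Stab1, 0.59 for Mrc1, 0.37 for Cd163 and 0.33 for Timd4 (n = 8). The relations of Cd163 and Timd4 were thus much smaller without that pair of samples. Without WT sample 3 alone, r was 0.83 for F13a1, 0.82 for Cd163, 0.74 for Stab1, 0.71 for Timd4 and 0.57 for Mrc1 (n = 9), and none of the 9 relations had an adjusted p under 0.05 (permutation adjusted p 0.0605 for F13a1, Cd163 and Stab1).

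After the genotype means were subtracted, r with Folr2 was 0.87 for F13a1, 0.73 for Stab1, 0.72 for Cd163, 0.70 for Mrc1 and 0.66 for Timd4. Gas6 (r 0.55) and Mertk (r 0.42) did not pass, with permutation adjusted p of 0.171 and 0.282. Lyve1 (r 0.21, rho 0.04) and Cbr2 (r 0.20, rho 0.39) varied largely apart from Folr2 across the lung samples, with permutation adjusted p of 0.554 for both by r. These samples share a table and differ in the marker sums given above.

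Over all 26 samples, with the mean of each group subtracted, the genes most like Folr2 were Stradb (r 0.74), Krcc1 (r 0.74), Gm10602 (r 0.72), Ppp1r7 (r 0.72) and Ighv6-3 (r 0.72). The monocyte libraries held at most 4 Folr2 reads each, so their part in the r over 26 samples rests on a few reads. Within cell types the values differed: Gm10602 had r 0.99 over the 10 lung samples and 0.07 over the 8 SPM samples, while Stradb had 0.72 and 0.96, Krcc1 0.88 and 0.71, Ppp1r7 0.78 and 0.67 and Ighv6-3 0.95 and 0.71. No member was among these 5. The highest members were Cd163 (r 0.52, with 0.74 in lung and -0.24 in SPMs) and Stab1 (r 0.50, with 0.73 and -0.06), and Timd4 had r 0.17, with 0.68 in lung and 0.80 in SPMs. Over the 8 SPM samples, r of the other members was 0.82 for Cbr2, 0.01 for Mertk, -0.45 for Lyve1, -0.50 for F13a1, -0.65 for Mrc1 and -0.90 for Gas6. The relations seen across the lung samples were thus not the same in SPMs, and this difference was not tested. The values are a description over 26 libraries that share 3 tables.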

How the data were processed

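RNA was measured in monocytes, SPMs and MHCII negative lung macrophages, and the deposited counts are raw read counts per gene, 1 table per cell type. Per the labels and the submitters' processing notes, libraries were made with a SMARTer ultra low input kit from poly-A RNA, and the notes name HISAT2 2.0.5, featureCounts 1.5.0-p3, DESeq2 and mm10. The lung table held 5 summary lines (56.3% of its counts, with reads outside features at 45.1 to 48.9% per library), which were left out. No source at hand names the tool that counted the lung reads. Counting was not stated to use strand.

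Groups came from the sample labels, and no replicates agreed within sampling noise. Genes were kept by edgeR's filter (minimum count 10, minimum total 15) and tested within each cell type with the quasi-likelihood test of edgeR 4.0.16 in R 4.3.3, TMM scaling and Benjamini-Hochberg adjustment. Genes were called at an adjusted p under 0.05 and a log2 fold change beyond 0.5, and interactions at an adjusted p under 0.05 alone. A fit of all 26 samples over 50104 shared identifiers compared cell types. CPM used TMM-scaled totals of tested genes, and RPKM divided CPM of the fit of all samples by gene length. SE and 95% intervals came from the fit. Correlations used log2 CPM with a prior count of 0.5 and 100000 resamples. Gene positions are those deposited, and all 10 equal GENCODE M21. Scripts were tested on simulated data.

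Genes were named by rule: the 10 members, Ackr2, list genes that passed a test or had the smallest p in each direction, and the 5 genes most like Folr2. The members and lists were chosen with earlier results of these data known. Alternatives were DESeq2 1.42.0, RLE scaling, no filter, a filter at 1 CPM, a replicate block and leaving out each sample, and the fit without WT lung samples 3 and 5 was added after seeing the data. Monocyte and SPM samples were pools of 5 mice. For lung samples nothing used here says that each came from separate mice, so p-values measure the spread between these samples. CPM precision covers counting error only.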

Additional observations from a re-analysis of the deposited data

Results flagged for a closer look

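In 14 of 76 groups of 4 or 5 samples examined, a single sample stood far from the rest of its group by Dixon's test at the 95% level, which chance gives in about 1 of 20 groups. In WT SPMs these were sample 1 for Lyve1 (24.9 CPM), Cd163 (42.1 CPM), Mrc1 (182 CPM) and F13a1 (405 CPM), each the highest, and for Folr2 (25.0 CPM), the lowest. In WT lung macrophages sample 3 was the highest for Folr2 (118 CPM), Mrc1 (159 CPM), Stab1 (86.7 CPM) and the summed macrophage markers (14870 CPM). In ACKR2-/- lung macrophages sample 3 was the highest for Stab1 (36.7 CPM). The others were in monocytes and rest on few reads: Folr2 (0.0526 CPM), Lyve1 (0.158 CPM) and Mertk (0.285 CPM) in ACKR2-/- monocytes and Ackr2 (0.111 CPM) in WT monocytes.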

How the results depend on the processing

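Genes called between genotypes in monocytes numbered 168, with 346 without the filter, 540 by DESeq2 and 76 to 413 when each sample was left out. In SPMs the count was 6, with 52, 30 and 3 to 8. In lung macrophages it was 0, with 21 by DESeq2 and 0 to 0. Lung macrophages against monocytes gave 11358 genes in WT (10807 to 11616) and 11023 in ACKR2-/- (10509 to 11206). The interaction gave 27, with 42 without the filter, 113 by DESeq2 and 13 to 53 when each sample was left out (14, 15 and 13 without WT monocyte samples 1, 2 and 3, and 53 without WT lung sample 5). With RLE scaling 1 member instead of 2 had an exact permutation p under 0.05 in lung macrophages, and that of Folr2 was 0.0556. Of the relations with Folr2, 5 passed, with 0 to 5 when each sample was left out (0 without WT sample 3, 2 without ACKR2-/- sample 5).

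Leaving out single samples turned the sign of these values: log2 fold changes of monocyte Cbr2 (-0.33 to 0.15), lung Lyve1 (-0.53 to 0.27) and Cbr2 (-0.62 to 0.11), Cd163 between ACKR2-/- lung macrophages and monocytes (-0.36 to 0.61), the interactions of Cbr2 (-0.63 to 0.18) and Mrc1 (-1.14 to 0.052), and r of Lyve1 with Folr2 (-0.076 to 0.36). The SPM log2 fold change of Timd4 also turned, from 0.28 to -0.04 without WT sample 1. No member's direction turned with RLE scaling, the filters or DESeq2. The cause of these changes was not tested. Deviations of same-numbered WT and ACKR2-/- samples had r from -0.10 to 0.28 in monocytes, -0.09 to 0.03 in SPMs and -0.06 to 0.62 in lung macrophages. For different numbers, r was -0.32 to 0.21, -0.07 to 0.06 and -0.61 to 0.66. So few values cannot show whether the numbers pair samples. A replicate block gave 186, 6 and 0 genes in the 3 cell types and 21 for the interaction. Members near 0 reads in monocytes could not be compared at this depth.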
